A study of Apeltes quadracus with 21 samples.

Results

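The *Hox* genes of 1 cluster were followed along the dorsal midline of a stickleback. *HOXD11B*, *HOXD9B* and *HOXD4B* make up the *HOXDB* cluster of the fourspine stickleback, *Apeltes quadracus*, and they were chosen by their names among 31532 gene models, of which 47 carry a *Hox* name. The data are RNA-seq counts for 7 tissues from each of 3 laboratory-raised fry, 21 libraries in all with n = 3 per tissue. All fry came from the Louisbourg population, were at the fin fold stage (stage 31), had 4 dorsal spines and carried the L/L genotype at *HOXDB*, so no other genotype or stage entered the comparisons. The tissues, from head to tail, were dorsal spines 1, 2 and 3 (DS1, DS2, DS3), a blank pterygiophore (Pter), the last dorsal spine (DSL) and the dorsal fin (DF). The anal fin (AF) came from the ventral midline. Pterygiophores are the midline bones on which spines and fin rays sit, and a blank one bears no spine. Each replicate number is 1 fish, so the tissues of a fish are paired. Fish 1, 2 and 3 are named by these replicate numbers, and the labels call the animals f1, f3 and f8. The tissue labels were not checked against marker genes, because gene models outside the *Hox* list carry only an ID.

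*Hox* genes encode homeodomain transcription factors that give cells along the body axis their positional identity. They lie in clusters, and in most vertebrates the order of the genes on the chromosome runs parallel to the order in which they are expressed from head to tail. Paralogue group 4 belongs to the anterior part of this series, group 9 to its middle and group 11 to its posterior part. Teleost fish went through an additional genome duplication, which is why names such as *HOXD11A* and *HOXD11B* denote genes of sister clusters.

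The 3 genes lay within 28648 bp on the plus strand of chromosome 6 in the authors' own assembly. *HOXD11B* had 3 exon blocks at chr6:16016955-16021639, *HOXD9B* had 2 at chr6:16025019-16029400 and *HOXD4B* had 7 at chr6:16032884-16045602. The gaps between the gene models measured 3379 bp and 3483 bp. The gap between *HOXD11B* and *HOXD9B* holds the conserved axial enhancer (AxE) examined in the study, and the markers AQ-HOXDB_6 and AQ-HOXDB_7, used to genotype the fry, lie in it. The primers of these 2 markers are shown with those of the cloned enhancer and with AQ-HOXDB_8R, from a marker not used to genotype the fry. Capitals mark the longest run that a primer of the cloned enhancer shares with a marker primer. It is 14 nt with AQ-HOXDB_6F and 12 nt with AQ-HOXDB_8R. The primers without capitals were not compared. All are written 5′ to 3′.
AQ-AxE-clone_1F: CTCTTAATGTCGCCacaaacca
AQ-HOXDB_6F: cagctgCTCTTAATGTCGCC
AQ-HOXDB_6R: caaagagggagagcagacgg
AQ-HOXDB_7F: gctgtgacttgtttcaaatgcc
AQ-HOXDB_7R: taagtggctcgcgtttaccg
AQ-AxE-clone_1R: tccccctGCTGATACGTGG
AQ-HOXDB_8R: GCTGATACGTGGagcagacc

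Library totals ranged from 26357373 to 34564481 counts. All 3 *HOXDB* genes were among the 21134 gene models that passed the filter on low counts. Levels are given as CPM, the count of a gene scaled to a common library size, after scaling factors between libraries had been applied. The scaling factors were 0.773 to 0.797 in Pter and 0.861 to 1.19 in the other tissues. Without them, every log2 difference would shift by 0.48 for DSL against Pter, 0.52 for DF against Pter, 0.31 for DF against DS3, 0.27 for DSL against DS3, -0.21 for Pter against DS3, 0.20 for AF against DS2 and -0.11 for DS3 against DS2. In bulk tissue, fewer expressing cells and less RNA per cell cannot be told apart.

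*HOXD11B*, the posterior member of the cluster, was close to the limit of detection in DS1. Its level there was 0.111, 0 and 0.0361 CPM in fish 1, 2 and 3, from 5 reads in all, and a count of 0 in fish 2 allows up to 0.0865 CPM (3 reads). It was 0.687, 0.355 and 0.365 CPM in DS2 and 14.3, 10.6 and 8.95 CPM in DS3. Each DS3 library thus exceeded each DS2 library by more than an order of magnitude. Pter had 21.1, 10.04 and 17.7 CPM, a range that overlapped with DS3. The highest level was reached in DSL, with 35.6, 28.7 and 29.6 CPM, and no other library exceeded the lowest of these. The fins lay below DSL and Pter, at 9.12, 7.04 and 7.74 CPM in DF and 6.30, 5.71 and 8.09 CPM in AF. The mean of DS1 was 0.157% of that of DSL, and the mean of DS2 was 1.498% of it. From low to high, the tissue means ran DS1, DS2, AF, DF, DS3, Pter and DSL. Fish 1 followed this order throughout, whereas Pter lay below DS3 in fish 2 and DF lay below AF in fish 3.

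*HOXD9B*, of the middle paralogue group, gave the most reads of the cluster in DS3 and every tissue behind it. In DS1 it was at 0.0833 CPM in fish 1, from 3 reads, and at 0 in fish 2 and 3, where a count of 0 allows up to 0.0865 and 0.108 CPM. It had 2.35, 1.58 and 0.926 CPM in DS2, from 65, 40 and 33 reads. DS3 had 25.5, 22.6 and 21.4 CPM, which left a gap of almost an order of magnitude to the highest DS2 library. Levels were 32.9, 25.3 and 28.2 CPM in Pter and 55.2, 46.3 and 45.4 CPM in DSL. The DSL libraries stood above all others, and Pter overlapped DS3. DF had 15.7, 17.6 and 14.8 CPM, and AF had 13.6, 13.5 and 14.2 CPM. The order of the 7 tissues was the same as for the means of *HOXD11B*, and each of the 3 fish followed it without exception.

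*HOXD4B*, of the anterior paralogue group, was read in every library and spanned a smaller range. It had 1.91, 2.48 and 2.67 CPM in DS1, from 69, 86 and 74 reads, and 2.24, 4.19 and 2.22 CPM in DS2. These ranges overlapped, and DS2 lay below DS1 in fish 3. DS3 had 7.90, 8.49 and 8.02 CPM, all above DS2. Pter had 15.5, 10.8 and 12.8 CPM and DSL had 13.9, 14.2 and 11.6 CPM, 2 ranges that overlapped. DF was at 6.50, 6.50 and 5.69 CPM and AF at 4.90, 6.36 and 4.82 CPM. The mean of DS1 was 17.8% of that of DSL. The means followed the order of the other 2 genes, although DSL (13.2 ± 1.41 CPM) and Pter (13.0 ± 2.35 CPM) lay within 1 SD of each other (SD, n = 3 each), and Pter was the higher of these in fish 1 and 3. *HOXD4B* overlaps the gene model STRG.8236 on the same strand, but the exons of the models share 0 bases. STRG.8236 varied between tissue means of 17.1 ± 2.85 CPM in DS1 and 20.3 ± 4.98 CPM in Pter (SD, n = 3 each), and its adjusted p among the 7 tissues was 0.937 in edgeR's quasi-likelihood test.

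**Figure D1:**
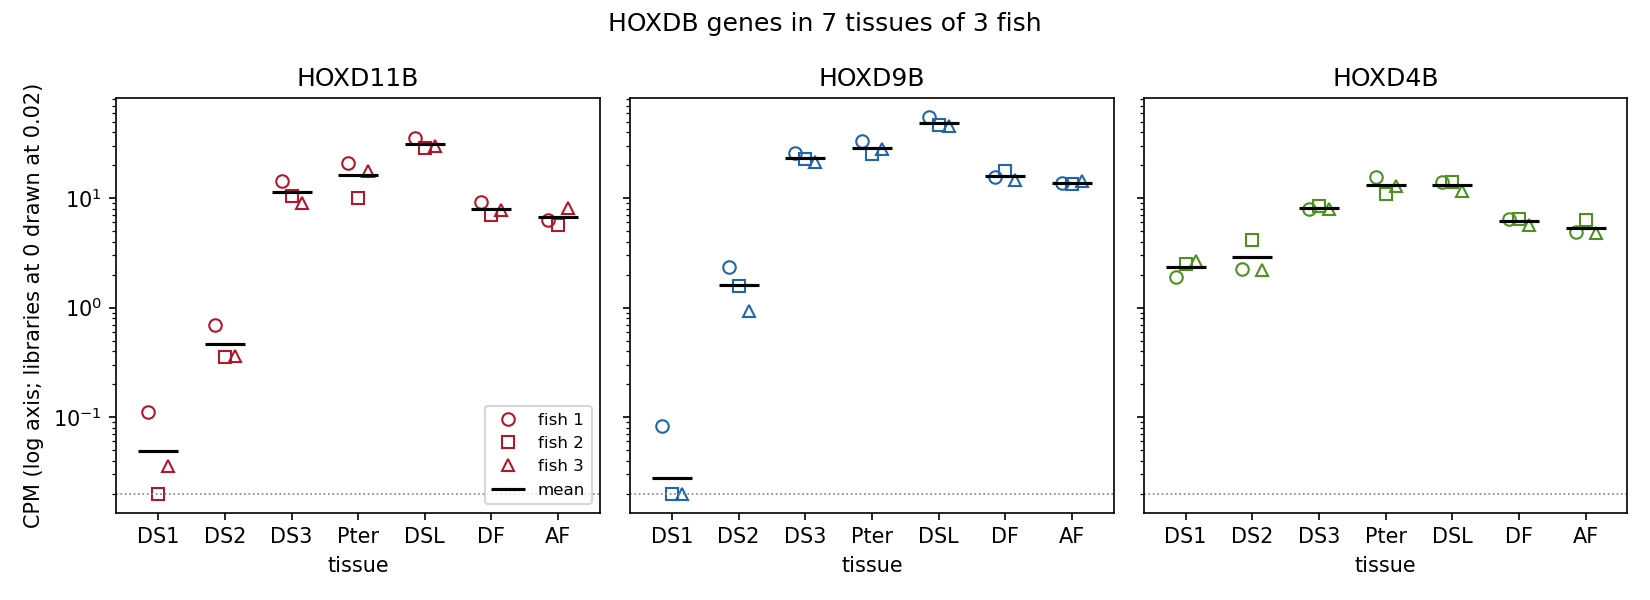
CPM (log axis) of *HOXD11B*, *HOXD9B* and *HOXD4B* in each library, by tissue from head to tail with the anal fin last; symbols stand for the 3 fish, black bars for tissue means, and libraries at 0 are drawn at 0.02. *HOXD11B* and *HOXD9B* stand at 0 to 0.111 CPM in DS1 and at 28.7 to 55.2 CPM in DSL, while *HOXD4B* stays between 1.91 and 15.5 CPM.

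The order of 7 tissue means was read from these genes, so their following it is no test. It was found in 6 of 21134 tested gene models (0.0284%), and the *Hox* genes among the 6 were the 3 *HOXDB* genes. *HOXD4B* followed it only because DSL (13.2 CPM) lay just above Pter (13.0 CPM). With RLE factors the log2 difference of these 2 tissues turned to -0.0069. Levels that rose strictly through DS1, DS2, DS3 and DSL in each of the 3 fish were found in 25 gene models (0.118% of those tested), 6 of them *Hox* genes. *HOXD11B* and *HOXD9B* were among the 25, and *HOXD4B* was not, since fish 3 had 2.67 CPM in DS1 and 2.22 CPM in DS2. All 3 genes differed among the 7 tissues, with adjusted p of 2.18e-09 for *HOXD11B*, 5.10e-10 for *HOXD9B* and 7.22e-07 for *HOXD4B* in edgeR's quasi-likelihood test, in which 20.2% of the tested gene models passed. Among the 4 spines alone the adjusted p was 9.59e-10, 8.92e-11 and 3.94e-06 in the same order of genes, and 0.232% of the tested models passed.

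Neighbouring spines were compared next, to locate the steps along the series. At the first step, DS2 against DS1, *HOXD9B* was called and *HOXD11B* rose as well. On the log2 scale *HOXD9B* stood 5.54 ± 0.511 higher in DS2 than in DS1 (SE), in 3 of 3 fish. Its adjusted p in edgeR was 6.52e-05, and it was the single gene that passed (0.00473% of those tested). With 3, 0 and 0 reads in DS1, *HOXD9B* passed the filter on low counts only through tissues in which it was higher. From the summed reads, 138 in DS2 and 3 in DS1, the ratio was 51.1, and its 95% counting interval ran between 17.1 and 251. The fitted difference was 8.59 without DS1 replicate 1, which held all 3 reads. The call was lost without fish 2 (adjusted p 0.339), with limma-voom (0.0559) and with DS1 and DS2 fitted alone (1). *HOXD11B* was 3.10 ± 0.627 higher in DS2, in 3 of 3 fish and without overlap of the libraries. It did not pass in edgeR (adjusted p 0.599) and did with DESeq2 (0.0498). Its 41 and 5 summed reads gave a ratio of 9.11 (95% counting interval 3.60 to 29.5). It passed the filter on low counts through other tissues, and it was filtered out when DS1 and DS2 were fitted alone. *HOXD4B* had a log2 difference of 0.29 ± 0.221 (adjusted p 1), which turned to -0.024 without fish 2 and to -0.075 without DS2 replicate 2.

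The second step, DS3 against DS2, involved the whole cluster. In edgeR's quasi-likelihood test the 3 *HOXDB* genes passed and no other gene model did (0.0142% of those tested). DESeq2 called 7 models. Of the 35 other tested *Hox* models, 20 had a log2 difference above 0. *HOXD11A* (2.32 ± 0.517, SE) and *HOXA9B* (2.22 ± 0.393) rose by more than *HOXD4B* without passing, from DS2 means of 0.169 and 0.197 CPM. The 3 *HOXDB* genes were all higher in DS3 in 3 of 3 fish. The log2 difference was 4.59 ± 0.358 for *HOXD11B* (SE, adjusted p 2.31e-06), 3.86 ± 0.269 for *HOXD9B* (7.43e-07) and 1.504 ± 0.217 for *HOXD4B* (0.0133). With fish as a block the 3 genes passed again (adjusted p 0.000939 for *HOXD4B* in edgeR), and *HOXD10A* passed as well. As ratios of mean CPM these differences were 24.1, 14.3 and 2.82. *HOXD11B* and *HOXD9B* passed in each of the 24 fits that left out a fish or a library. The call for *HOXD4B* was lost in 7 of these, without fish 1 or 3 (adjusted p 1 in both), DS2 replicate 1 (0.213), DS2 replicate 3 (0.199) or any DS3 library (0.0601 to 0.0875), and with DS2 and DS3 fitted alone (1). Its log2 difference lay between 1.34 and 1.87 throughout.

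Between DS3 and the last spine the 3 genes were higher in DSL in 3 of 3 fish, with no overlap of the libraries, but their calls depended on the processing, including how fish was treated. The log2 difference was 1.47 ± 0.279 for *HOXD11B* (SE, adjusted p 0.0535), 1.08 ± 0.228 for *HOXD9B* (0.0868) and 0.70 ± 0.206 for *HOXD4B* (0.213) in edgeR with tissue as the only term, where 0.0804% of gene models passed. With fish as a block, edgeR gave adjusted p of 7.39e-05, 0.000239 and 0.020, and 7.04% of gene models passed. Without the scaling factors the adjusted p was 0.0181 for each of the genes, and DESeq2 gave 1.53e-05, 5.02e-07 and 0.0457. These fits called 145 and 265 of 21134 gene models. Left out 1 at a time, DS1 replicates 1, 2 and 3, DS2 replicate 1 and Pter replicates 1 and 2 brought *HOXD11B* past the threshold (0.0188 to 0.0456), and DS1 replicates 1 and 3 and DS2 replicates 1 and 3 did so for *HOXD9B* (0.0393 to 0.0497). These libraries are not part of the comparison. Leaving 1 out changed the estimate of the spread and the set of gene models that passed the filter, and which of these moved the calls was not tested.

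The blank pterygiophore lies between DS3 and DSL and carries no spine. Against DS3, 0 of the 3 genes passed with tissue as the only term in edgeR, where 3.11% of gene models did. At an unadjusted p under 0.05 there was 1, *HOXD4B*, which DESeq2 also called (adjusted p 0.0179) and limma-voom did not. The log2 difference, Pter minus DS3, was 0.53 ± 0.277 for *HOXD11B* (SE, adjusted p 0.386), 0.31 ± 0.227 for *HOXD9B* (0.572) and 0.68 ± 0.207 for *HOXD4B* (0.089). *HOXD11B* was higher in 2 of 3 fish and its libraries overlapped with those of DS3, as did those of *HOXD9B*. *HOXD4B* was higher in 3 of 3 fish without overlap. With fish as a block *HOXD4B* passed (adjusted p 0.0114, with 14.9% of gene models called), and *HOXD11B* (0.0579) and *HOXD9B* (0.158) did not. *HOXD4B* also passed in edgeR without DS2 replicate 2 (0.0261).

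Against Pter, DSL had more *HOXD11B* and *HOXD9B* and about the same *HOXD4B*. *HOXD11B* was higher in DSL by 0.94 ± 0.275 (SE, adjusted p 0.0361) and *HOXD9B* by 0.77 ± 0.227 (adjusted p 0.0398) in edgeR, each in 3 of 3 fish and without overlap, where 9.74% of gene models passed. With fish as a block their adjusted p was 0.000285 and 0.000486 in edgeR, and 26.7% of gene models passed. With tissue as the only term, both calls were lost without any 1 fish (0.0639 to 0.361). They were also lost without Pter replicate 2 or 3 or any DSL library (0.0613 to 0.191). The call for *HOXD9B* was lost without DF replicate 1 (0.0527) or AF replicate 1 (0.0509) too. The log2 difference for *HOXD4B* was 0.02 ± 0.204 (adjusted p 0.977). It was 0.50 without the scaling factors, where *HOXD4B* was among 8127 of 21134 gene models that passed (adjusted p 0.0309). With a fish or a library left out the difference lay between -0.156 and 0.133, so its direction was not settled by these libraries.

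Behind the last spine the levels were lower again. In DF, *HOXD11B* fell by 1.97 relative to DSL (SE 0.283, adjusted p 0.000333), *HOXD9B* fell by 1.61 (SE 0.231, adjusted p 0.000343) and *HOXD4B* fell by 1.09 (SE 0.207, adjusted p 0.00314) on the log2 scale in edgeR. Each was lower in 3 of 3 fish, and 7.51% of gene models passed. The call for *HOXD4B* was lost without fish 1 (adjusted p 0.0879), and the other 2 genes passed in each of the 24 fits that left out a fish or a library. The difference was largest for the posterior paralogue group and smallest for the anterior one, but the genes were not tested against each other.

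DF was also lower than Pter for all 3 genes. The log2 difference, DF minus Pter, was -1.03 ± 0.279 for *HOXD11B* (SE, adjusted p 0.0267), -0.84 ± 0.229 for *HOXD9B* (0.0269) and -1.07 ± 0.208 for *HOXD4B* (0.00466) in edgeR, where 10.1% of gene models passed. No library of DF reached the range of Pter. With fish as a block the adjusted p was 0.000359, 0.000287 and 0.000168 in edgeR, in the same order of genes. In that blocked fit 29.6% of gene models passed. Without the scaling factors the differences were -0.51, -0.33 and -0.55, and *HOXD4B* alone of the 3 passed (adjusted p 0.168, 0.270 and 0.0164). In that fit 9942 of 21134 gene models passed. The call for *HOXD11B* was lost with DF and Pter fitted alone (0.0649). The calls for *HOXD11B* and *HOXD9B* were lost without any 1 fish (0.0655 to 0.191), Pter replicate 1 or 3 or any DF library (0.0502 to 0.1001). The call for *HOXD4B* was lost without fish 1 (0.0674) or fish 3 (0.0568).

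Between DF and DS3, 0 of the 3 genes passed in edgeR with tissue as the only term over all 21 libraries. The log2 difference, DF minus DS3, was -0.50 ± 0.278 for *HOXD11B* (SE, adjusted p 0.251), -0.53 ± 0.228 for *HOXD9B* (0.132) and -0.38 ± 0.208 for *HOXD4B* (0.237) in edgeR, and 14.7% of gene models passed. *HOXD9B* had an unadjusted p under 0.05 and passed with DESeq2 (0.0171), limma-voom (0.0241) and DF and DS3 fitted alone (0.0325). With fish as a block *HOXD11B* (0.038) and *HOXD9B* (0.00802) passed and *HOXD4B* did not (0.0983), and 34.3% of gene models passed. Between the fins, AF minus DF, the log2 differences were -0.25 ± 0.279, -0.22 ± 0.228 and -0.22 ± 0.208 for *HOXD11B*, *HOXD9B* and *HOXD4B* (adjusted p 1 for each in edgeR), and 0.218% of gene models passed. At an unadjusted p under 0.05, and with DESeq2 and limma-voom, the count was also 0 of 3.

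AF, a fin of the opposite midline, was also set against DS2, an anterior spine. They are neighbours in the order of levels and the pair was chosen with earlier results of these data known, so the test is not independent of that order. The 3 genes were higher in AF in 3 of 3 fish without overlap. In edgeR the log2 difference was 3.84 ± 0.355 for *HOXD11B* (SE, adjusted p 1.96e-06), 3.11 ± 0.264 for *HOXD9B* (6.65e-07) and 0.90 ± 0.215 for *HOXD4B* (0.0103), and 12.3% of gene models passed. With fish as a block *HOXD4B* passed again (adjusted p 0.00125 in edgeR), and 31.3% of gene models did. With tissue as the only term, its call was lost without fish 1 (0.152) or fish 3 (0.0876), and with both tissues fitted alone (0.109). It was also lost without DS2 replicate 1 (0.0693), DS2 replicate 3 (0.0583) or AF replicate 2 (0.0583). In the order of levels, AF and DF, DF and DS3, and DS3 and Pter were neighbours. Between them no *HOXDB* gene passed in edgeR with tissue as the only term, scaling factors and all 21 libraries. The same held for DS1 and DS2 in *HOXD11B* and *HOXD4B*, and for Pter and DSL in *HOXD4B*. Other settings called some of these. DESeq2 called *HOXD11B* for DS2 against DS1 (adjusted p 0.0498), and edgeR without scaling factors called *HOXD4B* for DSL against Pter (0.0309).

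**Figure D2:**
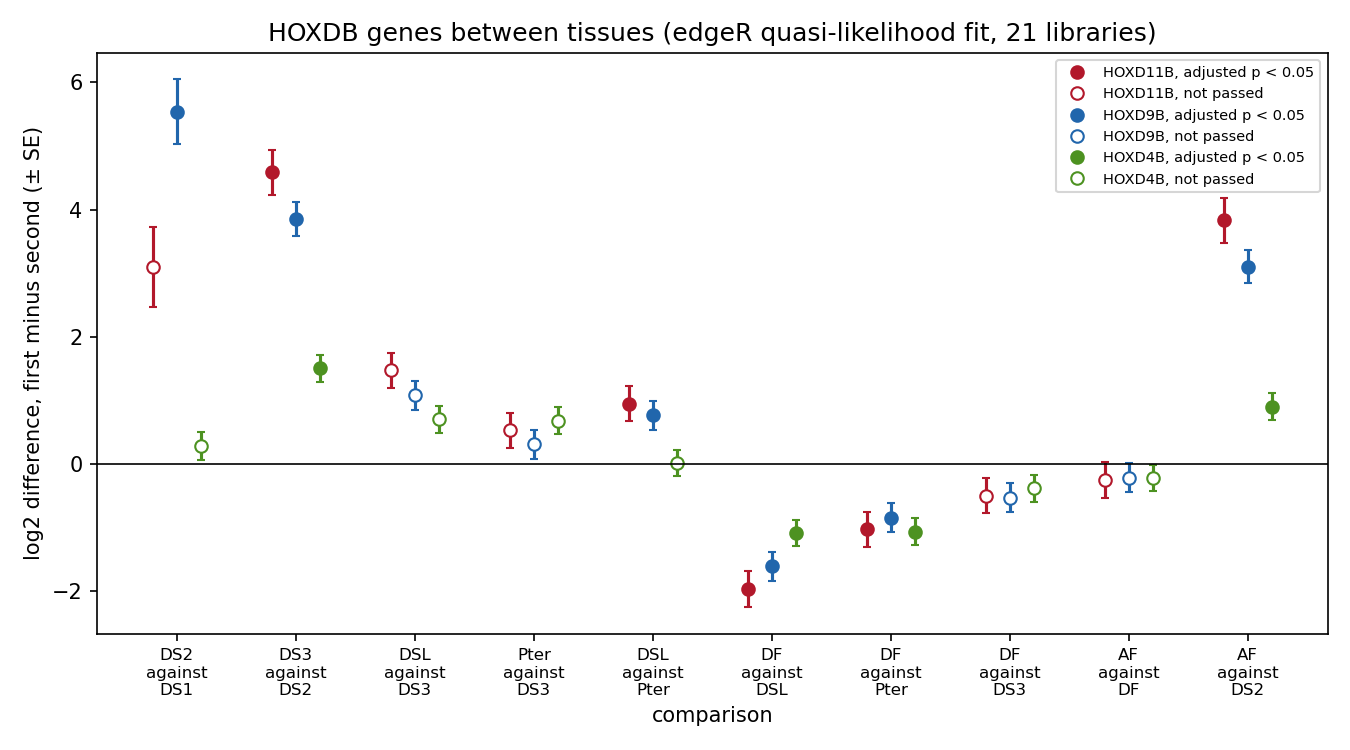
Log2 difference (first tissue minus second) of *HOXD11B*, *HOXD9B* and *HOXD4B* in 10 comparisons, with SE bars from edgeR's fit over 21 libraries; filled points passed at an adjusted p under 0.05 and open points did not. All 3 genes are filled for DS3 against DS2, DF against DSL, DF against Pter and AF against DS2.

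Measures taken within a library do not depend on the scaling between libraries. Of all reads assigned to *Hox* gene models, the *HOXDB* genes took 0.744 ± 0.201% in DS1, 1.25 ± 0.377% in DS2 and 9.39 ± 0.294% in DS3 (SD, n = 3 each). The share was 15.7 ± 1.52% in Pter and 20.9 ± 0.444% in DSL, then 7.95 ± 0.356% in DF and 6.97 ± 0.873% in AF. No library of DSL, of Pter or of DS3 overlapped with a library of another tissue in this share. The order of the tissues was that of the levels. All *Hox* models together had fewer reads in Pter (7972 to 8899) than in DS3 (10427 to 13263), while the *HOXDB* genes had 1121 to 1516 reads in Pter and 971 to 1289 in DS3, so the higher share in Pter came with a lower *Hox* total.

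Per kilobase of exon, *HOXD9B* led the cluster from DS3 onwards. It reached 16.8 ± 1.86 CPM per kb in DSL, against 8.95 ± 1.08 for *HOXD11B* and 2.56 ± 0.273 for *HOXD4B* (SD, n = 3 each). *HOXD9B* ranked 1st by mean CPM per kb among the 38 tested *Hox* models in DSL, and *HOXD11B* ranked 9th and *HOXD4B* 21st. In DS1, where *HOXC8A* was the highest *Hox* model at 15.4 CPM per kb, *HOXD4B* ranked 25th, *HOXD11B* 31st and *HOXD9B* 33rd.

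The balance within the cluster also differed among tissues. The reads per kb of *HOXD9B* relative to those of *HOXD4B* gave a ratio of 0.0770, 0 and 0 in DS1, 1.86, 0.669 and 0.740 in DS2 and 5.73, 4.72 and 4.73 in DS3, in fish 1, 2 and 3. The ratio was 3.76, 4.14 and 3.90 in Pter and 7.03, 5.79 and 6.93 in DSL. All DSL libraries lay above all libraries of the other tissues, and all Pter libraries lay below those of DS3, although the level of each gene was no lower on average in Pter than in DS3. DF had 4.29, 4.81 and 4.60, and AF had 4.93, 3.75 and 5.24. The ratio of *HOXD9B* to *HOXD11B* per kb varied less from DS3 onwards, from a mean of 1.88 ± 0.0528 in DSL to 2.52 ± 0.368 in DS3 (SD, n = 3 each), and the ranges of these 2 tissues did not overlap. These ratios are descriptions, with 3 fish per tissue.

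**Figure D3:**
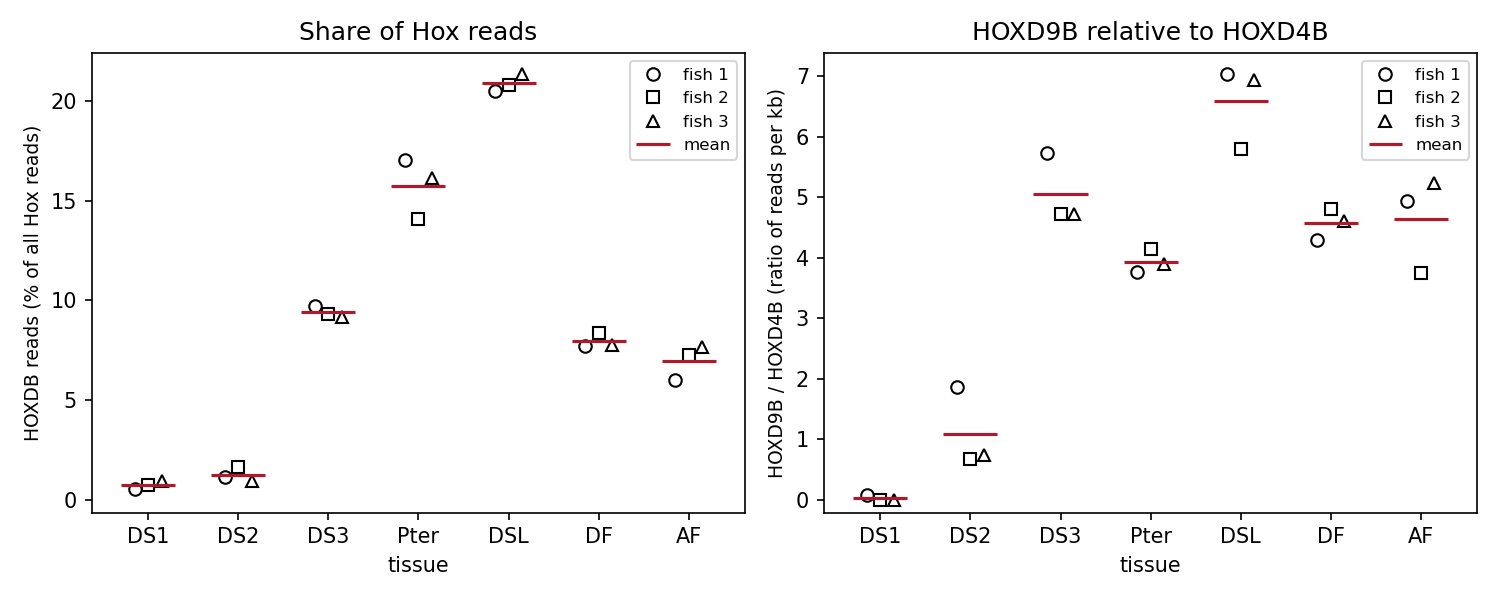
Left, reads of the 3 *HOXDB* genes as a percent of all *Hox* reads in a library; right, *HOXD9B* relative to *HOXD4B* as a ratio of reads per kb of exon. Symbols stand for the 3 fish and red bars for tissue means; the share peaks at 20.9% in DSL, and the ratio is 3.76 to 4.14 in Pter and 5.79 to 7.03 in DSL.

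Over the 21 libraries the log2 levels of *HOXD11B* and *HOXD9B* correlated with r = 0.982 (Spearman's rho 0.984), those of *HOXD11B* and *HOXD4B* with r = 0.905 (rho 0.925) and those of *HOXD9B* and *HOXD4B* with r = 0.866 (rho 0.946). Libraries of a fish and of a tissue are not independent, so these values are descriptive. After removing the tissue means, in the 15 libraries outside DS1 and DS2, r was 0.723 for *HOXD11B* and *HOXD9B*, 0.331 for *HOXD11B* and *HOXD4B* and 0.516 for *HOXD9B* and *HOXD4B*. The fish differed by gene. *HOXD11B* lay below the tissue mean in all 5 of these tissues in fish 2, by 0.24 on average on the log2 scale, and above it in 4 of 5 in fish 1. *HOXD4B* lay below the tissue mean in 5 of 5 tissues in fish 3, and above it in 4 of 5 in fish 2.

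Of the 44 other *Hox* gene models, 35 passed the filter on low counts. Between neighbouring anterior spines, edgeR called none of them with tissue as the only term, and with fish as a block it called 1, *HOXD10A*, for DS3 against DS2. DS3 was not tested against DS1 here, so a rise spread over both steps was not tested as a whole. For that pair in low-spine *Apeltes*, the paper lists further *Hox* genes besides the *HOXDB* genes as different. *HOXD9A*, *HOXD10A* and *HOXD11A* are among those. The paper's list came from DESeq2 at a stricter threshold on the adjusted p than the 0.05 used with edgeR here. *HOXC11A* passed the filter through other tissues, as it had 0 CPM in DS1 and DS2 and a mean of 0.0124 CPM in DS3. The log2 difference of *HOXC12A* for DS2 against DS1 was 0. Models without reads in these spines could not pass there, so the count is partly set by the filter. In edgeR with tissue alone, 0 of the 35 passed for DS2 against DS1 and for DS3 against DS2. The shares over all tested models were 0.00473% and 0.0142%. The median log2 difference of the 35 was 0.23 and 0.12, beside -0.0064 and 0.0050 over all tested genes. The smallest adjusted p for DS3 against DS2 among them was 0.130, for *HOXA9B*, in edgeR. At an unadjusted p under 0.05 the counts were 14 and 9 of 35, limma-voom called 0 in both comparisons, and DESeq2 called 0 for DS2 against DS1 and 2 for DS3 against DS2. The range was wide, as *HOXC12A* had a log2 difference of 4.24 for DS3 against DS2 without passing.

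Further back, the other *Hox* models passed in both directions. With tissue as the only term in edgeR, DSL against DS3 had 2 higher and 5 lower of 35 (0.0804% of all tested models passed), Pter against DS3 had 2 higher and 6 lower (3.11%), and DSL against Pter had 4 higher and 3 lower (9.74%). With fish as a block these counts were 18, 15 and 13 of 35, beside 7.04%, 14.9% and 26.7% of all tested models. In the dorsal fin, 8 were higher and 12 lower than in DSL (7.51%), 9 higher and 17 lower than in Pter (10.1%), and 10 higher and 18 lower than in DS3 (14.7%). Between DF and DS3, 28 of 35 passed in edgeR with tissue as the only term over all 21 libraries, and 0 of 3 *HOXDB* genes did. The 28 include *HOXC11A*, with a mean of 37.5 CPM in DF and 0.0124 CPM in DS3. With fish as a block the counts were 32 of 35 and 2 of 3, beside 34.3% of all tested models, and the difference between the lists was not tested. AF against DS2 had 11 higher and 17 lower (12.3%), and AF against DF had 0 higher and 3 lower (0.218%). Among the 7 tissues 33 of the 35 differed, beside 20.2% of all tested models. Among the 4 spines 14 of them did, beside 0.232%, and with fish as a block 27 did, beside 4.99%.

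**Figure D4:**
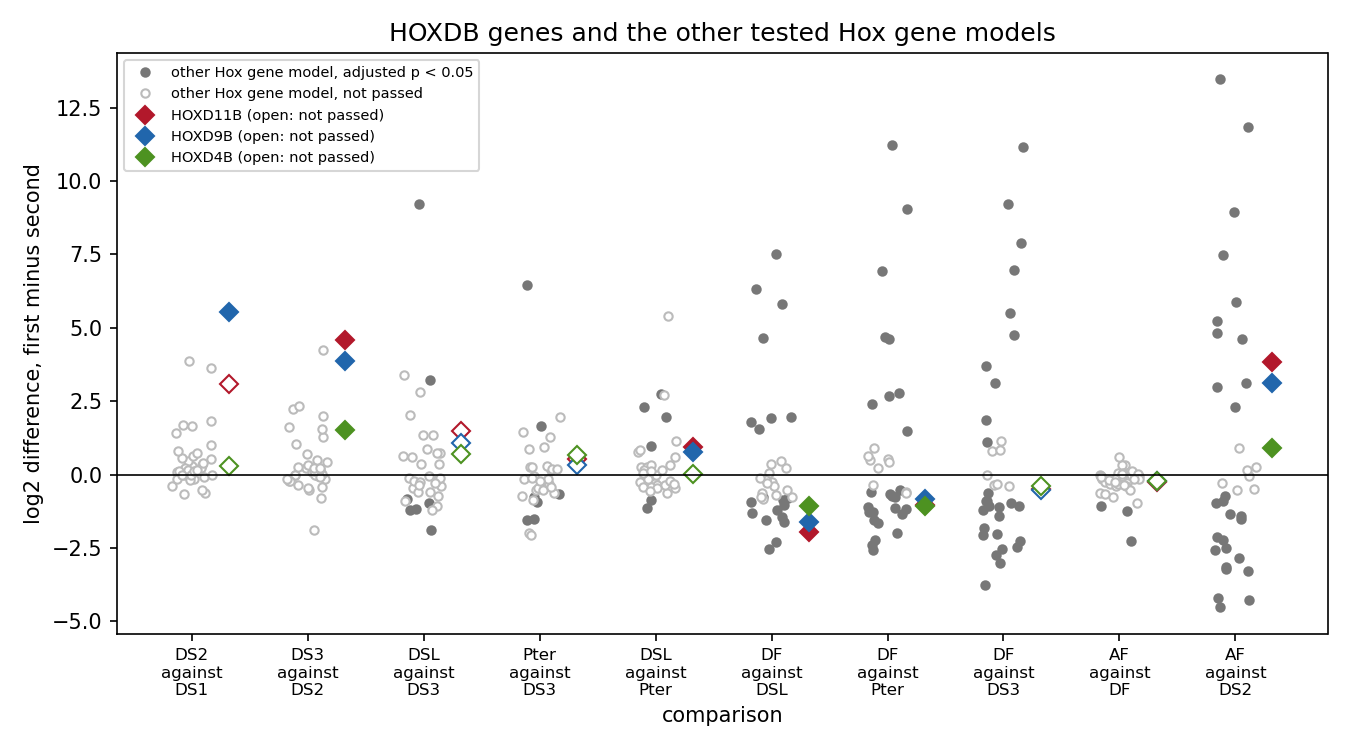
Log2 difference (first tissue minus second) in 10 comparisons for the 3 *HOXDB* genes (diamonds) and the 35 other tested *Hox* models (circles, spread sideways at random), filled where the adjusted p was under 0.05 with tissue as the only term. For DS3 against DS2 the *HOXDB* genes are filled and 0 of the 35 circles are; for DF against DS3, 28 circles are filled and the diamonds are open.

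Besides the members, 13 gene models belong to paralogue groups 4, 9 and 11. All 13 were tested, and 6 of them differed among the 4 spines, beside 0.232% of all tested models. With fish as a block 12 did, beside 4.99%. The copies in the sister cluster on chromosome 16 shared parts of the *HOXDB* pattern and differed in others. *HOXD4A*, the copy of the anterior group, averaged 10.9 ± 0.827 CPM in DS1 and 14.3 ± 1.47 CPM in DS2, and its highest mean was 16.7 ± 0.681 CPM in DS3 (SD, n = 3 each). DSL was close to this, at 16.0 ± 1.54 CPM. With tissue as the only term in edgeR, the adjusted p of *HOXD4A* among the 4 spines was 0.172, beside 3.94e-06 for *HOXD4B*. The 2 genes were not tested against each other. Whether *HOXD4A* was among the 12 models that differed with fish as a block is not given here. In DF *HOXD4A* fell by 0.91 relative to DS3 (SE 0.132, adjusted p 0.000248 in edgeR). Relative to DSL it fell by 0.85 (SE 0.132, adjusted p 0.000638 in edgeR).

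*HOXD9A* overlaps an antisense gene model, so its counts are less certain. Along the spines DS1, DS2, DS3 and DSL its mean CPM was 4.18 ± 1.33, 6.94 ± 1.24, 9.38 ± 0.745 and 15.6 ± 0.798 (SD, n = 3 each). The mean of DSL was its highest, beside 7.98 ± 2.79 CPM in Pter, 9.29 ± 0.588 CPM in DF and 7.73 ± 1.61 CPM in AF. *HOXD9A* differed among the 4 spines (adjusted p 0.00303 in edgeR). From DSL to DF it fell by 0.75 without passing (SE 0.231, adjusted p 0.0546 in edgeR). Its log2 difference, DS2 minus DS1, was 0.73 ± 0.238 (SE, adjusted p 1 in edgeR), beside 5.54 for *HOXD9B*. The levels of *HOXD9A* in DS1 were thus within an order of magnitude of those in DSL, and those of *HOXD9B* were not.

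*HOXD11A* was low in the anterior spines, with 0.0470 ± 0.0426 CPM in DS1 and 0.169 ± 0.0857 CPM in DS2 (SD, n = 3 each). Its DS1 libraries overlapped with those of *HOXD11B*, and its DS2 libraries, at 0.0723 to 0.237 CPM, lay below the 0.355 to 0.687 CPM of *HOXD11B*. In DS3 it had 0.863 ± 0.144 CPM, where *HOXD11B* had 11.3 ± 2.77 CPM. It was higher in DSL than in DS3 by 3.22 ± 0.403 (SE, adjusted p 0.00118) and higher in DF than in DS3 by 3.68 ± 0.407 (adjusted p 2.27e-05) in edgeR. Its highest mean was that of DF, at 11.1 ± 1.78 CPM, whereas the mean of *HOXD11B* in DF was 25.4% of that in DSL.

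Likeness was measured as the correlation of log2 CPM over the 21 libraries, outside the cluster, and the 2 models most like *HOXD11B* and *HOXD9B* were the same *Hox* genes. *HOXD11B* was closest to *HOXD10A* (r = 0.924), *HOXC10A* (r = 0.903) and *HOXA9B* (r = 0.861), and *HOXD9B* to *HOXD10A* (r = 0.899), *HOXC10A* (r = 0.899) and STRG.15076 (r = 0.859). Inside the cluster, *HOXD9B* was the nearest of all tested models to *HOXD11B*, and the reverse held too. *HOXD10A* overlaps an antisense gene model. By ranks the likeness to *HOXD11B* was weaker, with rho of 0.755 for *HOXD10A*, 0.660 for *HOXC10A* and 0.523 for *HOXA9B*, at positions 11, 44 and 214 of the list. For *HOXD9B*, rho was 0.726 for *HOXD10A*, 0.652 for *HOXC10A* and 0.607 for STRG.15076, at positions 23, 59 and 102. *HOXD10A* and *HOXC10A* stayed high in the fins: the mean of *HOXD10A* was 10.6 ± 1.49 CPM in DF and 15.1 ± 2.95 CPM in DSL, and that of *HOXC10A* was 16.4 ± 3.23 CPM in DF and 18.6 ± 5.30 CPM in DSL (SD, n = 3 each).

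**Figure D5:**
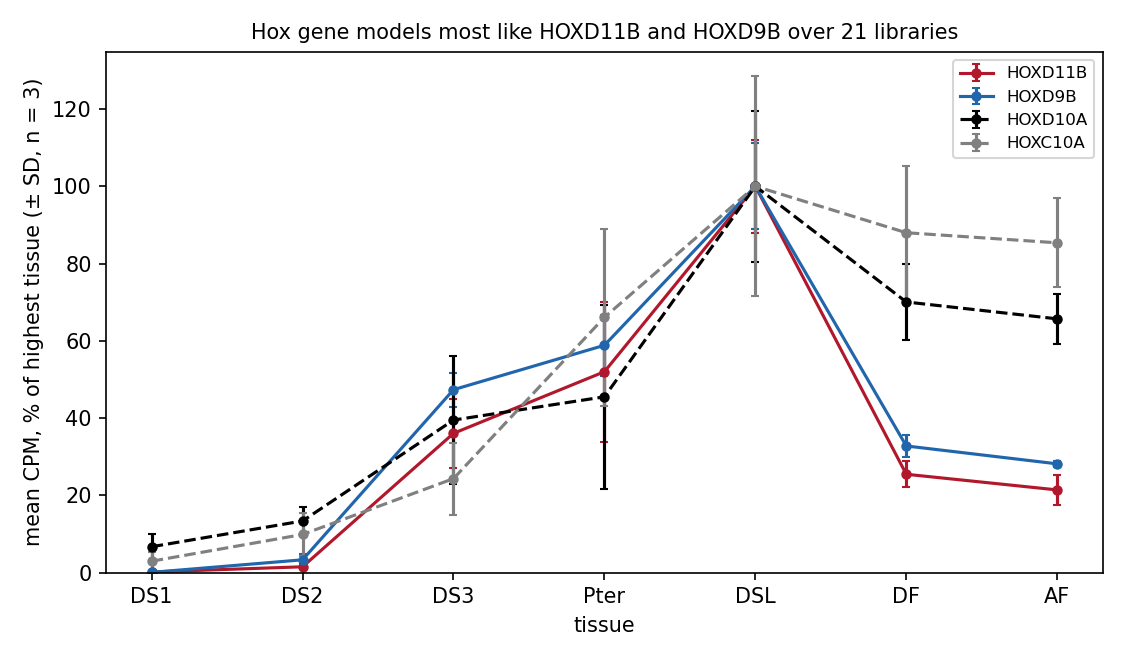
Mean CPM in each tissue as a percent of the gene's highest tissue (± SD, n = 3) for *HOXD11B*, *HOXD9B* and the 2 *Hox* gene models most like them over 21 libraries, *HOXD10A* and *HOXC10A*. All 4 peak in DSL; in DF, *HOXD11B* stands at 25.4% and *HOXD9B* at 32.8% of the peak, below *HOXD10A* and *HOXC10A*.

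*HOXD4B* was closest to models with an ID only. These were STRG.17304 (r = 0.831), STRG.6970 (r = 0.820) and STRG.961 (r = 0.817), on chromosomes 13, 5 and 1. Among the *Hox* models outside the cluster, *HOXC4A* was nearest to it (r = 0.780), the 9th of all tested models. STRG.17304 ranged only from 14.0 ± 1.20 CPM in DS1 to 19.4 ± 1.49 CPM in DSL (SD, n = 3 each), so its range was far smaller than that of *HOXD4B*.

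Around the cluster, the 5 tested gene models nearest on each side were examined. In edgeR, 0 of the 10 passed for DS2 against DS1, for DS3 against DS2 or for DSL against DS3. Over all tested models the shares were 0.00473%, 0.0142% and 0.0804%. Among the 4 spines 0 of 10 passed, beside 0.232% of all tested models and all 3 *HOXDB* genes. At such low shares, 0 of 10 does not set the flanking models apart from other models. DESeq2 and limma-voom also gave 0 of 10 in each of these tests, and an unadjusted p under 0.05 was reached by 0, 0, 1 and 1 of them in the same order of tests. The calls with fish as a block also numbered 0, 0, 1 and 1, beside 0.00473%, 0.0189%, 7.04% and 4.99% of all tested models. The 2 nearest on the side of *HOXD11B* lay 2012 and 10677 bp away. STRG.8233, the nearer, had tissue means between 19.9 CPM in DS1 and 22.7 CPM in Pter. Of the 10, 2 differed among the 7 tissues, close to the 20.2% of all tested models that did. STRG.8231, 60386 bp from *HOXD11B*, had a mean of 199 CPM in DSL and 63.8 CPM in Pter, and STRG.8240, 62627 bp from *HOXD4B*, had 152 CPM in DSL and 302 CPM in Pter. Both passed for DSL against Pter (adjusted p 0.000814 and 0.0310 in edgeR), where 9.74% of all tested models did.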

How the data were processed

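RNA-seq libraries (Illumina Stranded mRNA kit) of 7 tissues from each of 3 fish were used. The counts deposited by the authors are whole-number reads per gene model without normalization, and the deposited table also gives exon lengths. Per the labels, reads were trimmed with Trim Galore and cutadapt 2.4, checked with FastQC 0.11.9, mapped with STAR and counted with featureCounts of Subread 2.0.1. Whether strand was used in counting is not given in the sources used here, so overlapping models are uncertain. The gene models and the assembly, ordered along *Gasterosteus* chromosomes, were made by the authors, who named the *Hox* genes by BLAST. The other 85 of 106 columns were not used.

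Models were kept by filterByExpr, scaled by TMM and tested with edgeR 4.0.16 (quasi-likelihood F test, limma 3.58.1, R 4.3.3), with tissue as the only term over all 21 libraries and Benjamini-Hochberg adjustment over 21134 models at 0.05. The SE is the log2 difference divided by the square root of F. Log2 CPM used a prior count of 2. The 95% counting intervals are exact binomial (scipy 1.17.1), and floors are 3 reads per library. Both cover counting error only. Residuals after tissue means correlated between tissues of the same fish with r of at least 0.520 over 63 pairs, and fish was tried as a block. Counts of replicate libraries differed by a chi-square of 28.3 to 328 per degree of freedom, so none was a duplicate. The other alternatives were RLE or no scaling factors, DESeq2 1.42.0, limma-voom, no filter, a filter of 1 CPM in at least 6 libraries, the compared tissues alone, and leaving out each fish or library. All of these other alternatives had tissue as the only term. The procedure was tested on simulated counts in which models changed in Pter only and no fish effect was drawn. That test therefore does not bear on the pairing of tissues within a fish.

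Named genes were the 3 *HOXDB* genes, their copies *HOXD4A*, *HOXD9A* and *HOXD11A*, the 3 models most like each member and the 5 tested models nearest on each side. *HOXA9B*, *HOXC4A*, *HOXC8A*, *HOXC11A*, *HOXC12A* and 3 of the flanking models were named after their values were seen. The members and lists were chosen with earlier results of these data known.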

Additional observations from a re-analysis of the deposited data

How the results depend on the processing

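With 3 fish, many calls of the *HOXDB* genes moved with the processing. With the compared tissues alone, the filter removed *HOXD11B* for DS2 against DS1. The number of the 3 genes called for DS2 against DS1 was 1, and 2 with DESeq2 and 0 with limma-voom or with the compared tissues alone. For DSL against DS3 it was 0, and 3 without scaling factors, with DESeq2 or with fish as replicate block, 2 with limma-voom, and 1 without a filter or with the stricter filter. For Pter against DS3 it was 0, and 1 with DESeq2 or the replicate block. For DSL against Pter it was 2, and 1 with the compared tissues alone, and *HOXD4B* passed too without scaling factors (adjusted p 0.0309 in edgeR). For DS3 against DS2 and for AF against DS2 it was 3, and *HOXD4B* was lost with the compared tissues alone. For DF against Pter it was 3, 2 with the compared tissues alone, and 1 without scaling factors. For DF against DS3 it was 0, 2 with the replicate block, and 1 with DESeq2, limma-voom or the compared tissues alone. The replicate block changed no other call of these genes. When 1 fish or library was left out, the count lay between 0 and 1 for DS2 against DS1 and for Pter against DS3, between 0 and 2 for DSL against DS3 and for DSL against Pter, and between 0 and 3 for DF against Pter. Leaving out libraries of tissues outside a comparison was chosen after seeing the data. Signs turned for *HOXD4B* only: for DS2 against DS1 (-0.075 to 0.545 with a fish or library left out, -0.024 without fish 2) and for DSL against Pter (-0.0069 with RLE factors, -0.0068 with DESeq2, -0.0024 with the compared tissues alone, and between -0.156 and 0.133 with a fish or library left out). The cause of these changes was not tested. Over all tested gene models, the replicate block raised the number called for DSL against DS3 (1488, against 17 with tissue alone), Pter against DS3 (3157, 657), DSL against Pter (5648, 2059), DF against DSL (4393, 1587), DF against Pter (6259, 2143), DF against DS3 (7258, 3111), AF against DF (90, 46) and AF against DS2 (6606, 2596), and among the 7 tissues (10374, 4274) and the 4 spines (1054, 49). DESeq2 called 265 for DSL against DS3, 1076 for Pter against DS3, 76 for AF against DF and 269 among the 4 spines. Fitted alone, the compared tissues gave 9 for DSL against DS3, 140 for Pter against DS3, 933 for DSL against Pter, 806 for DF against Pter, 8 for AF against DF, 1656 for AF against DS2 and 26 among the spines. With tissue alone, 1 passed for DS2 against DS1, and 6 did with DESeq2 and 0 with limma-voom or the compared tissues alone. For DS3 against DS2, 3 passed, and 7 did with DESeq2. For DSL against DS3, limma-voom called 30. Without scaling factors, 145 passed for DSL against DS3, 8127 for DSL against Pter and 9942 for DF against Pter. Models rising through the spines in each fish numbered 25, 26 without the filter and 23 without scaling factors. With at most 5 reads in DS1, the fold changes of *HOXD11B* and *HOXD9B* against it are limited by counting.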
